A study of Mus musculus with 16 samples.

Results

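The collagen-rich and collagen-poor tumours compared here were 12 of 16 arrays of RNA from whole pancreatic tumours, 6 in each class. They were selected on a measured value: for each array, the mean of Col1a1, Col1a2, Col3a1 and Col5a1 was taken from the authors' deposited log2 table, with 1 probe per gene. The 6 arrays with the highest mean were called collagen-rich, the 6 with the lowest collagen-poor, and the 4 between them stayed out of the comparison of classes. These 4 genes therefore differ between the classes by construction, and every other gene was examined for what accompanied them.

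The 16 tumours were orthotopic, that is, pancreatic cancers grown in the pancreas itself, and their hosts were female C57BL/6 mice. Of these, 6 were from vehicle-treated mice, whose time label reads only control, 5 were taken at 48 h and 5 at 10 days of ADH-503. This compound, which the sample titles call LA1, is a CD11b activator. Neither the age of the mice nor the tumour cell line is given in the sources used here. Each sample title carries an ID number, and these differ between samples apart from the pair named next. The labels do not say whether a number stands for an animal. The p-values therefore measure how far these samples differ among themselves, which may in part be technical. Vehicle replicate 2, which was collagen-rich, and 48 h replicate 5, which was collagen-poor, carry the same ID number in their titles, while the description of the first gives another number. Their arrays correlated at r = 0.949 across probes, within the range of 0.942 to 0.976 over all pairs of arrays, and counts are also given without both.

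Desmoplasia is the dense, scar-like stroma that surrounds pancreatic cancer cells. Activated fibroblasts, many of them derived from pancreatic stellate cells, secrete fibrillar collagens together with proteoglycans, elastic fibre proteins and matricellular proteins. Collagen chains are modified and folded in the endoplasmic reticulum, cut to size outside the cell and then cross-linked by enzymes of the lysyl oxidase family, which makes the matrix stiff. TGF-beta, PDGF and Hedgehog signals are known to drive fibroblasts in this tissue.

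To show the start regions of the genes on which the arrays were chosen and of a companion gene, Sparc, the 250 bases before the annotated start are given for each gene that the promoter table holds, on the coding strand and 5′ to 3′, from RefSeq on assembly GRCm38.p6. Capitals mark the 3 motifs searched on both strands, the CCAAT box (CCAAT or ATTGG), the TATA box (TATAAA or TTTATA) and the GC box (GGGCGG or CCGCCC), none of which overlap here.
Col1a2, chr6:4505368-4505617, plus strand: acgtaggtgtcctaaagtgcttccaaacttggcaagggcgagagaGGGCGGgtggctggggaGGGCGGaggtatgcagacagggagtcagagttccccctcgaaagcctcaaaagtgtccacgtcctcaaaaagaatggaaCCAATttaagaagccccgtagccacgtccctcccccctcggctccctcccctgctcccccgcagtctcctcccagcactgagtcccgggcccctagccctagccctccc
Col3a1, chr1:45311288-45311537, plus strand: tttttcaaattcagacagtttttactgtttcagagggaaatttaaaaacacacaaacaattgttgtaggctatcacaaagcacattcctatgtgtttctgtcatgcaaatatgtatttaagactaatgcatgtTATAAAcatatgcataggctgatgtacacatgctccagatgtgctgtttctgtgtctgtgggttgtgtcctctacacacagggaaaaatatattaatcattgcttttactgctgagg
Col5a1, chr2:27886175-27886424, plus strand: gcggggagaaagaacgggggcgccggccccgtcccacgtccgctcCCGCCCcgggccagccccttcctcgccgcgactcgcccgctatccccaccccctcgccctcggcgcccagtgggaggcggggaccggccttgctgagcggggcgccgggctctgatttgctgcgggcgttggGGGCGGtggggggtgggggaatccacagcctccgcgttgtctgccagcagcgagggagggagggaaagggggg
Sparc, chr11:55420081-55420330, minus strand: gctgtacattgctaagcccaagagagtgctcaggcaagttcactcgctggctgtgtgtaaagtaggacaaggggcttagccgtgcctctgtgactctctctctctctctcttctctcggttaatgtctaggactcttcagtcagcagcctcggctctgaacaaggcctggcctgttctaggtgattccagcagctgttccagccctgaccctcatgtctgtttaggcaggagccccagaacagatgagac
The Col1a2 window held 1 CCAAT box and 2 GC boxes, the Col3a1 window 1 TATA box, the Col5a1 window 2 GC boxes and the Sparc window 0 of the 3 motifs. Of 32851 promoter windows of this length, 33.85% held a CCAAT box, 12.37% a TATA box and 32.74% a GC box. Their GC content was 62.0% for Col1a2, 35.2% for Col3a1, 76.4% for Col5a1 and 54.0% for Sparc. A match of letters is a description and was not tied to any value below.

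The collagen score, the mean of the 4 genes on the deposited log2 scale, ran from 10.69 to 14.16. The collagen-rich class, from the highest score down, was made up of 48 h replicate 3 at 14.16, 10 days replicate 3 at 13.80, and vehicle replicates 2, 4, 3 and 1 at 13.46, 13.21, 13.02 and 12.99. The collagen-poor class, from the lowest up, was made up of 10 days replicate 5 at 10.69, 48 h replicates 4 and 2 at 11.30 and 11.58, vehicle replicate 6 at 12.03, and 48 h replicates 1 and 5 at 12.31 and 12.39. The arrays just outside the classes were close to them. The 10 days replicate 4 array, at 12.967, stood next to the lowest collagen-rich array at 12.987, and vehicle replicate 5, at 12.395, next to the highest collagen-poor array at 12.392. The class means were 13.44 ± 0.47 (SD, n = 6) and 11.72 ± 0.65 (SD, n = 6), a span of 1.72, where 1 unit on a log2 scale is a factor of 2. The 2 arrays with the most collagen and the 1 with the least were all from treated tumours.

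**Figure D1:**
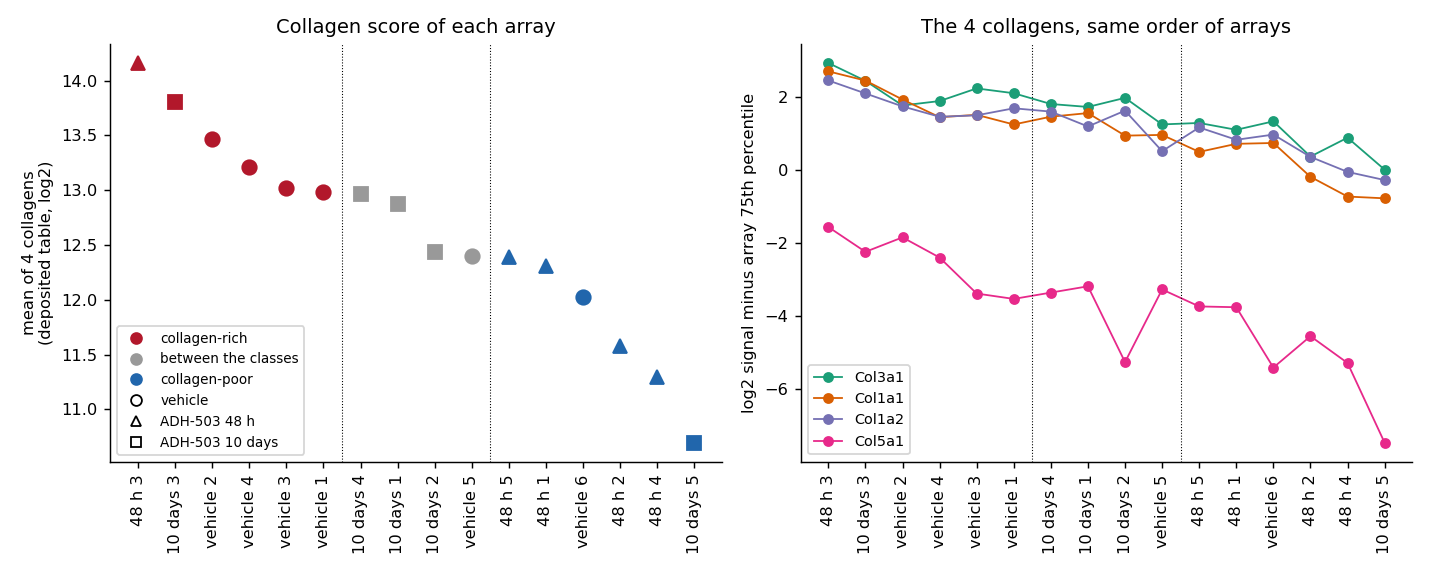
Left, the collagen score of each of the 16 arrays in descending order, on the log2 scale of the deposited table, with colour for class and shape for treatment; dotted lines mark the class boundaries. Right, the log2 signal of each of the 4 collagens minus the array's 75th percentile, in the same order of arrays, named by treatment and replicate; each gene is lower to the right, and Col5a1 reads -7.46 in 10 days replicate 5.

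The classes were unevenly spread over the treatments. Vehicle gave 4 collagen-rich, 1 collagen-poor and 1 intermediate array, 48 h gave 1 collagen-rich and 4 collagen-poor arrays, and 10 days gave 1 of each class and 3 intermediate arrays. The score itself was 12.85 ± 0.54 (SD, n = 6) in vehicle, 12.35 ± 1.12 (SD, n = 5) at 48 h and 12.56 ± 1.15 (SD, n = 5) at 10 days, and the 3 groups overlapped. Because treatment was a term of the fit, a difference between the classes is one within treatments: in vehicle it set vehicle replicate 6 against 4 arrays, at 48 h it set replicate 3 against 4 arrays, and at 10 days it set replicate 3 against replicate 5. Each of the 2 slides, which were scanned in separate sessions, held 3 collagen-rich and 3 collagen-poor arrays. Treatment went largely with slide: all vehicle arrays but replicate 1 were on slide 2, and all 48 h arrays but replicate 5 on slide 1. The treatment term may therefore hold part of a difference between slides. The share of probes well above background was 78.7% ± 1.5 (SD, n = 6) in collagen-rich and 77.4% ± 1.4 (SD, n = 6) in collagen-poor arrays (exact 2-sided permutation test, p = 0.143).

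The 4 collagens are described from the scanner files, without a test. Values here and below are log2 processed signal minus the array's 75th percentile, and they are compared between arrays, never between genes. Col1a1 and Col1a2, the chains of type I collagen, stood at 1.24 (lowest), 1.71 (median) and 2.69 (highest) and at 1.45, 1.71 and 2.44 in collagen-rich arrays. In collagen-poor arrays the same values were -0.78, 0.15 and 0.73 for Col1a1, and -0.28, 0.59 and 1.16 for Col1a2. Neither gene overlapped between the classes. Col3a1, the chain of type III collagen, ran from 1.76 to 2.92 in collagen-rich and from 0.00 to 1.32 in collagen-poor arrays. Col5a1, a chain of type V collagen, which starts collagen fibrils, had the widest range, from -3.53 to -1.56 against -7.46 to -3.74, and it was not well above background in 10 days replicate 5. The probes that carried the score lie on build mm9 at chr11:94814188-94814247 for Col1a1, chr6:4490619-4490678 for Col1a2, chr1:45405589-45405648 for Col3a1 and chr2:27894595-27894654 for Col5a1. Of the further probes named for Col1a1, the 2 that were well above background on all 16 arrays differed by 1.99 and 2.12 between the class means, beside 1.83 for the probe used. A further Col1a2 probe, also well above background on all 16 arrays, differed by -0.01, beside 1.32 for the probe used.

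Between the classes no gene passed the test. limma with treatment as covariate called 0 of 30560 genes higher and 0 lower (0% in each direction) at a Benjamini-Hochberg adjusted p under 0.05, and the lowest adjusted p was 0.304. At an unadjusted p under 0.05 there were 1169 genes higher in collagen-rich arrays (3.83%) and 431 lower (1.41%), 1600 in all, where 5% of the genes tested are 1528. Without vehicle replicate 6 these counts were 641 and 213, and over the fits without 1 array they ran from 641 to 1630 and from 213 to 595. All 6 collagen-rich arrays stood above all 6 collagen-poor arrays for 32 genes (0.105%), and below them for 11 (0.036%). Of all genes tested 56.4% were higher in collagen-rich arrays, by whatever amount, and the median difference over all genes was 0.03. Of the genes at an unadjusted p under 0.05, 73.1% were higher in collagen-rich arrays, while the deposited quantile-normalized values gave 51.8%, so the balance of directions depended on the scaling. Without vehicle replicate 2 and 48 h replicate 5, 1 gene passed, Lgi2, a secreted leucine-rich repeat protein, as it did without 48 h replicate 5 alone (adjusted p = 0.0137 and 0.0278 by limma). With slide as a term 1 other gene passed, Fam228a. Lists below are described by counts and medians that can be read against these shares, and none of their members passed in the comparison of classes.

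Lox, the lysyl oxidase that begins collagen and elastin cross-linking, had a signal of -5.13 (lowest), -4.75 (median) and -3.64 (highest) in collagen-rich arrays and -7.99, -6.66 and -5.27 in collagen-poor ones. The classes did not overlap, and Lox was well above background on 6 of 6 collagen-rich but 1 of 6 collagen-poor arrays, so its low values lie near the floor of the array. The difference between the classes was 2.70 ± 0.40 (SE), with an adjusted p of 0.383 by limma. It was 2.55 within slide 1, where the fit with treatment sets 48 h replicate 3 against 48 h replicates 1, 2 and 4. Within slide 2, where it sets vehicle replicate 6 against vehicle replicates 2, 3 and 4, the difference was 1.75.

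When the score was used as a number over all 16 arrays, in place of the classes, 4 genes rose with it (0.0131% of 30560) and 0 fell (0%), again with treatment as covariate in limma. At an unadjusted p under 0.05, 1345 genes rose with the score (4.4%) and 291 fell (0.952%). Slopes are given per 1.72 units of score, the span between the class means. Lox had a slope of 2.13 ± 0.20 (SE) and an adjusted p of 0.000963. It was well above background on 10 of the 16 arrays, mostly those with more collagen, so that it entered the test through them and the low end of its slope rests on values near the floor. Sparc, a matricellular protein that binds collagen and is known as a stromal gene of this cancer, had a slope of 1.38 ± 0.17 and an adjusted p of 0.0195. Fkbp10, a chaperone in the endoplasmic reticulum that assists the folding and cross-linking of procollagen, had a slope of 1.91 ± 0.26 and an adjusted p of 0.0397. Greb1, known as an oestrogen-responsive gene, had a slope of 1.55 ± 0.22 and an adjusted p of 0.0407. Lox, Sparc and Fkbp10 encode proteins that bind, fold or cross-link collagen. The share of such genes among all genes tested was not counted, so this is a description only.

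Across the arrays Sparc ran from 1.46 through a median of 2.15 to 2.65 in collagen-rich tumours, and from -0.24 through 1.25 to 1.80 in collagen-poor ones. The classes overlapped, vehicle replicate 3 being the low collagen-rich array and 48 h replicate 4 and 10 days replicate 5 the lowest collagen-poor ones at 0.24 and -0.24. Fkbp10 ran from -4.13 through -2.97 to -2.18 and from -6.63 through -4.76 to -3.39, and 10 days replicate 5 was again the lowest. Greb1 ran from -5.19 through -4.64 to -3.13 and from -7.65 through -5.41 to -4.74, and was well above background on 4 of 6 collagen-poor arrays. The probe of Sparc lies at chr11:55208939-55208998, that of Fkbp10 at chr11:100286080-100286139 and that of Greb1 at chr12:16678455-16678514 on mm9.

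These 4 calls leaned on the array with the least collagen. Without 10 days replicate 5 no gene passed: the Lox slope was then 1.99 with an adjusted p of 0.0675, and Sparc, Fkbp10 and Greb1 had an adjusted p of 0.792. Lox passed in 15 of the 16 fits that left out 1 array, Sparc in 13, Fkbp10 in 5 and Greb1 in 4. Lox and Sparc, 2 genes of the 4, were left without 48 h replicate 2, 48 h replicate 5, 10 days replicate 2, vehicle replicate 2 or vehicle replicate 6. Lox alone passed without 48 h replicate 4, without vehicle replicate 4, without vehicle replicate 2 and 48 h replicate 5 together, and with slide as a term. Without both 10 days replicate 5 and 48 h replicate 3, the arrays farthest from the median score, 0 genes passed and the Lox slope was 2.01.

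**Figure D2:**
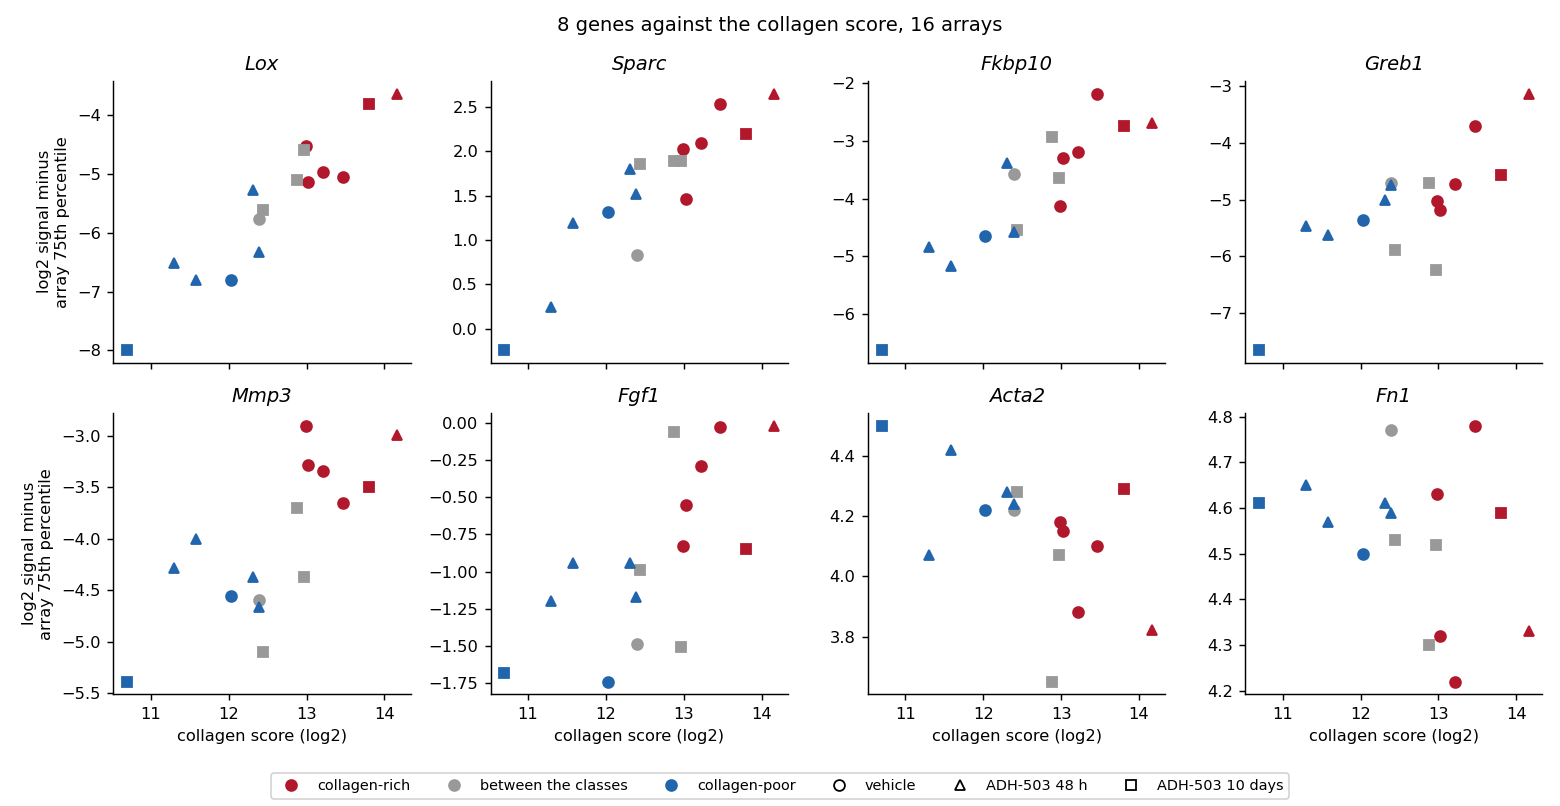
Log2 signal minus the array's 75th percentile of 8 genes against the collagen score of each of the 16 arrays, with colour for class and shape for treatment. Lox, Sparc, Fkbp10 and Greb1 rise with the score and are lowest in 10 days replicate 5; Mmp3 and Fgf1 separate the classes without overlap; Acta2 and Fn1 do not separate them.

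Of the genes of collagen assembly, none passed in the comparison of classes. Of 32 tested members of the collagen processing list 23 were higher (71.9%, against 56.4% of all genes), 5 of them at an unadjusted p under 0.05 and 0 lower at that p, and the list median was 0.07, near the 0.03 of all genes. The 5 were P3h4 (2.35 ± 0.65), Fkbp10 (2.17 ± 0.53), Plod2, Fkbp14 and Serpinh1 (0.59 ± 0.20). P3h4 and Plod2 take part in the hydroxylation of collagen lysines, and Serpinh1, known as HSP47, is the collagen-specific chaperone. Serpinh1 ran from -0.15 to 0.69 in collagen-rich and from -0.70 to 0.32 in collagen-poor arrays, so the classes overlapped. Some of the further probes went the other way: this was so for the 2 further probes of Fkbp14 and the 1 of Plod2.

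Among the cross-linking enzymes 4 of 8 were higher (50%, against 56.4% of all genes). Their median was 0.27, but 0.03 within slide 2 and -0.06 over members well above background on all arrays. Beside Lox, Loxl2 differed by 1.26 ± 0.35 (unadjusted p = 0.00474, adjusted p = 0.927 by limma), and its collagen-rich values of -2.19 to -0.85 overlapped the collagen-poor values of -3.50 to -1.52. Loxl1, well above background on 5 of 6 collagen-poor arrays, differed by 1.53 ± 0.76 and Loxl4 by 0.58 ± 0.40. Tgm1, a transglutaminase of epithelia, differed by -0.08 ± 0.21.

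Among the other collagens the difference was most marked in type VI collagen, whose beaded filaments lie around cells. Col6a2 stood at -0.85 (lowest), 0.12 (median) and 1.23 (highest) in collagen-rich and at -4.25, -1.14 and 0.28 in collagen-poor arrays, a difference of 2.08 ± 0.66. Col6a1 differed by 1.82 ± 0.63. In both genes the classes overlapped, vehicle replicate 3 being low and 48 h replicate 1 high. Of the 29 non-fibrillar collagens tested 21 were higher (72.4%, against 56.4% of all genes), and the median was 0.20. At an unadjusted p under 0.05, 4 were higher (Col6a2, Col6a1, Col18a1 and Col19a1), where 3.83% of all genes were. Of the 6 other fibrillar collagens 5 were higher, with a median of 0.22, but that median was 0.06 in the deposited table. Col2a1 differed by 1.05 ± 0.39, while Col11a1 (0.09 ± 0.16) and Col24a1 (-0.14 ± 0.19) were near 0.

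Proteoglycans had the highest median of the matrix lists, 0.55, with 19 of 23 higher (82.6%, against 56.4% of all genes). At an unadjusted p under 0.05, 6 were higher, where 3.83% of all genes were. Of the 6, Podn, Spock2 and Ogn were well above background on 2, 3 and 1 of 6 collagen-poor arrays. Over members well above background on all arrays the median was 0.44, below the 0.46 of the laminins and nidogens. Decorin and biglycan, well above background on all 16 arrays, are small leucine-rich proteoglycans that bind collagen fibrils and TGF-beta. Dcn ran from -1.02 through -0.14 to 1.06 in collagen-rich and from -2.99 through -1.05 to -0.43 in collagen-poor arrays, a difference of 1.66 ± 0.51. Bgn ran from -0.84 through -0.03 to 0.10 and from -2.13 through -1.08 to -0.63, a difference of 1.07 ± 0.32. In both genes the classes overlapped, in Bgn only through vehicle replicate 3 at -0.84. The Dcn probe read 1.04 in 10 days replicate 2, an intermediate array, as high as in the most collagen-rich tumour at 1.06.

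Elastic fibre and microfibril genes had a median of 0.38, with 14 of 18 higher (77.8%, against 56.4% of all genes). At an unadjusted p under 0.05, 3 were higher, where 3.83% of all genes were. Fbn1, the main protein of microfibrils, differed by 1.105 ± 0.31, Fbln2, a fibulin, by 1.95 ± 0.61, and Efemp1, known as fibulin-3, by 1.07 ± 0.36. Fbn1 ran from -3.01 to -2.02 in collagen-rich and from -5.18 to -2.76 in collagen-poor arrays. Basement membrane genes were all on 1 side, 12 of 12 laminins and nidogens being higher with a median of 0.47, and 3 of them, Lamb2 (0.999 ± 0.41), Nid1 (1.12 ± 0.47) and Lama5 (1.30 ± 0.56), had an unadjusted p under 0.05. Of 30 matricellular and adhesive glycoproteins 27 were higher, with a median of 0.33 and 4 at that p: Sparc, Tnxb (0.77 ± 0.27), Sparcl1 (2.06 ± 0.82) and Igfbp5 (1.48 ± 0.66). Sparcl1 was well above background on 5 of 6 collagen-rich and 3 of 6 collagen-poor arrays. Tnc, or tenascin C, differed by 0.48 ± 0.22.

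The stromal gene Postn, or periostin, differed by 0.45 ± 0.37 and overlapped, from -3.34 to -1.54 against -3.35 to -2.17. Over 16 arrays the slope of Postn on the score was 0.64 ± 0.20 (unadjusted p = 0.00703, adjusted p = 0.660 by limma). Fn1, or fibronectin, differed by -0.12 ± 0.14. It ran from 4.22 to 4.78 in collagen-rich and from 4.50 to 4.65 in collagen-poor arrays. The score over 16 arrays gave 12 of 30 matricellular genes, 9 of 23 proteoglycans, 8 of 29 non-fibrillar collagens, 7 of 18 elastic fibre genes and 5 of 12 laminins and nidogens at an unadjusted p under 0.05 in the direction of more collagen, where 4.4% of all genes had such a p. None of these lists had a member that fell with the score at that p.

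**Figure D3:**
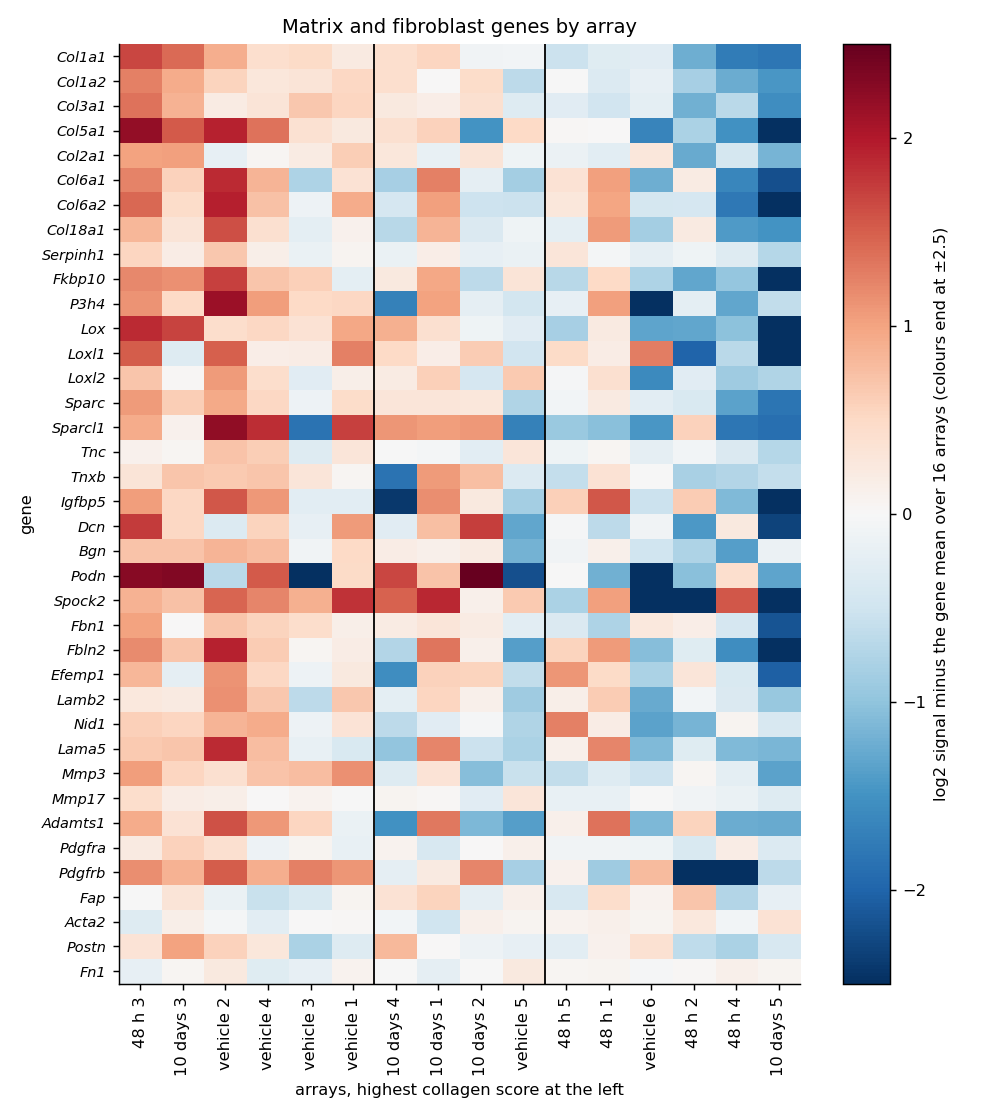
Log2 signal of matrix and fibroblast genes in each of the 16 arrays, minus the gene's mean over the arrays, with arrays ordered by collagen score from the left and vertical lines at the class boundaries; colours end at 2.5 on either side. The right-most array, 10 days replicate 5, is low for most matrix genes, vehicle replicate 2 is high for type VI collagen and Fbln2, and the rows of Fap, Acta2 and Fn1 are pale throughout.

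Mmp3, or stromelysin 1, which digests proteoglycans and fibronectin, was among the 12 genes with the smallest p. It read -3.65 (lowest), -3.31 (median) and -2.90 (highest) in collagen-rich arrays and -5.39, -4.47 and -4.00 in collagen-poor arrays, with no overlap. Its difference was 1.44 ± 0.20, with an adjusted p of 0.304 by limma. Mmp3 passed when the 8 highest arrays were set against the 8 lowest (adjusted p = 0.017). Mmp17 also did not overlap, with a difference of 0.38 ± 0.12. Adamts1 and Htra1 differed by 1.38 ± 0.53 and 1.23 ± 0.54. Mmp2, the gelatinase known from stromal fibroblasts, differed by -0.10 ± 0.40. Over the 35 tested proteases and inhibitors 23 were higher (65.7%, against 56.4% of all genes) and the median was 0.09.

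For receptors of matrix, Ddr2, a receptor tyrosine kinase for fibrillar collagen, differed by 0.97 ± 0.38, from -4.40 to -3.28 against -5.40 to -3.83. Of 21 collagen receptors and matrix integrins 14 were higher (66.7%, against 56.4% of all genes). Of the 21, 1, Ddr2, had an unadjusted p under 0.05, where 3.83% of all genes were higher at that p. Itga11, the collagen-binding integrin chain of fibroblasts, differed by 0.23 ± 0.18. Itgam, which encodes CD11b, the target of the drug, differed by -0.03 ± 0.16, with 1 outlier spot, in vehicle replicate 3, left out, and its partner Itgb2 by -0.08 ± 0.12.

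The mean of the 23 fibroblast identity genes tested lay between -2.13 and -1.54 in collagen-rich arrays and between -2.56 and -2.22 in collagen-poor ones, without overlap; collagens are not in this list. Of the 23, 16 were higher (69.6%, against 56.4% of all genes), 5 at an unadjusted p under 0.05, and the median was 0.38. That median was 0.17 without 48 h replicate 3, 0.51 and 0.11 within the slides and 0.07 over members well above background on all arrays. Osr1 and Prrx1, transcription factors of mesenchymal cells, differed by 2.21 ± 0.68 and 1.71 ± 0.73, with 4 and 5 of 6 collagen-poor arrays well above background, and the 1 further probe of Prrx1 went the other way. Pdgfrb, the PDGF receptor of fibroblasts and pericytes, read -3.70 (lowest), -3.43 (median) and -3.05 (highest) in collagen-rich arrays and -8.04, -5.34 and -3.78 in collagen-poor ones, with no overlap. Its fitted difference was 1.67 ± 0.76 (adjusted p = 0.932 by limma). The lowest values, -8.04 and -7.69, were those of 48 h replicates 2 and 4, and Pdgfrb was well above background on 4 of 6 collagen-poor arrays. The difference was 0.84 without 48 h replicate 3, 3.66 within slide 1 and 0.44 within slide 2. Pdgfra differed by 0.40 ± 0.19.

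Fap, the fibroblast activation protein, differed by -0.01 ± 0.31, from -1.76 to -0.88 against -1.93 to -0.50. Acta2, smooth muscle actin and the usual marker of myofibroblasts, ran in collagen-rich arrays from 3.82 through 4.13 to 4.29, against 4.07 through 4.26 to 4.50, a difference of -0.27 ± 0.13 with an adjusted p of 0.932 by limma; 1 of its 2 further probes went the other way. Contractile genes as a whole had a median of 0.07, with 12 of 19 higher (63.2%, against 56.4% of all genes). Smtn (0.76 ± 0.21) and Synpo2 (0.90 ± 0.28) were among the 12. Inflammatory fibroblast genes had a median of 0.25, with 22 of 25 higher, C3 differing by 0.34 ± 0.14, Il6 by 0.48 ± 0.30 and Cxcl12 by 0.04 ± 0.27. In RNA of whole tumours, more cells of a type and more RNA per cell cannot be told apart.

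Of the TGF-beta ligands, Tgfb1 differed by -0.05 ± 0.14, Tgfb2 by 0.51 ± 0.52 and Tgfb3 by 0.19 ± 0.28. Of 24 TGF-beta ligands, receptors and regulators 16 were higher (66.7%, against 56.4% of all genes), with a median of 0.08, near that of all genes, and 1 had an unadjusted p under 0.05: Lrrc32, known as GARP, which holds latent TGF-beta at the cell surface (0.82 ± 0.35). Genes known to respond to TGF-beta had a median of 0.22, and Ccn2, the connective tissue growth factor, differed by 1.46 ± 0.69 with values of -0.71 to 1.504 against -2.52 to 0.94. Bmp4 differed by 0.92 ± 0.31.

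The list of growth factors of the PDGF, FGF and CTGF type also holds receptors, among them Pdgfra and Pdgfrb, which are in the fibroblast identity list too. It had a median of 0.40, with 20 of 23 higher (87.0%, against 56.4% of all genes). Fgf1, which was among the 12 genes with the smallest p, read -0.85 (lowest), -0.42 (median) and -0.02 (highest) in collagen-rich arrays and -1.74, -1.19 and -0.94 in collagen-poor ones. It did not overlap, its 2 further probes went the same way, and its difference was 1.096 ± 0.18 (adjusted p = 0.459 by limma). Of 12 Hedgehog pathway genes 9 were higher (75%, against 56.4% of all genes). Gas1, a co-receptor that was well above background on 2 of 6 collagen-poor arrays, differed by 2.05 ± 0.68. Ptch1, a target gene of the pathway, differed by 0.21 ± 0.18. Of 20 YAP and TEAD target genes 16 were higher, and Ankrd1 differed by 1.91 ± 0.76. The Wnt list had a median of 0.29, with Sfrp1 at 0.69 ± 0.27 and Rspo3 at 0.73 ± 0.25.

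**Figure D4:**
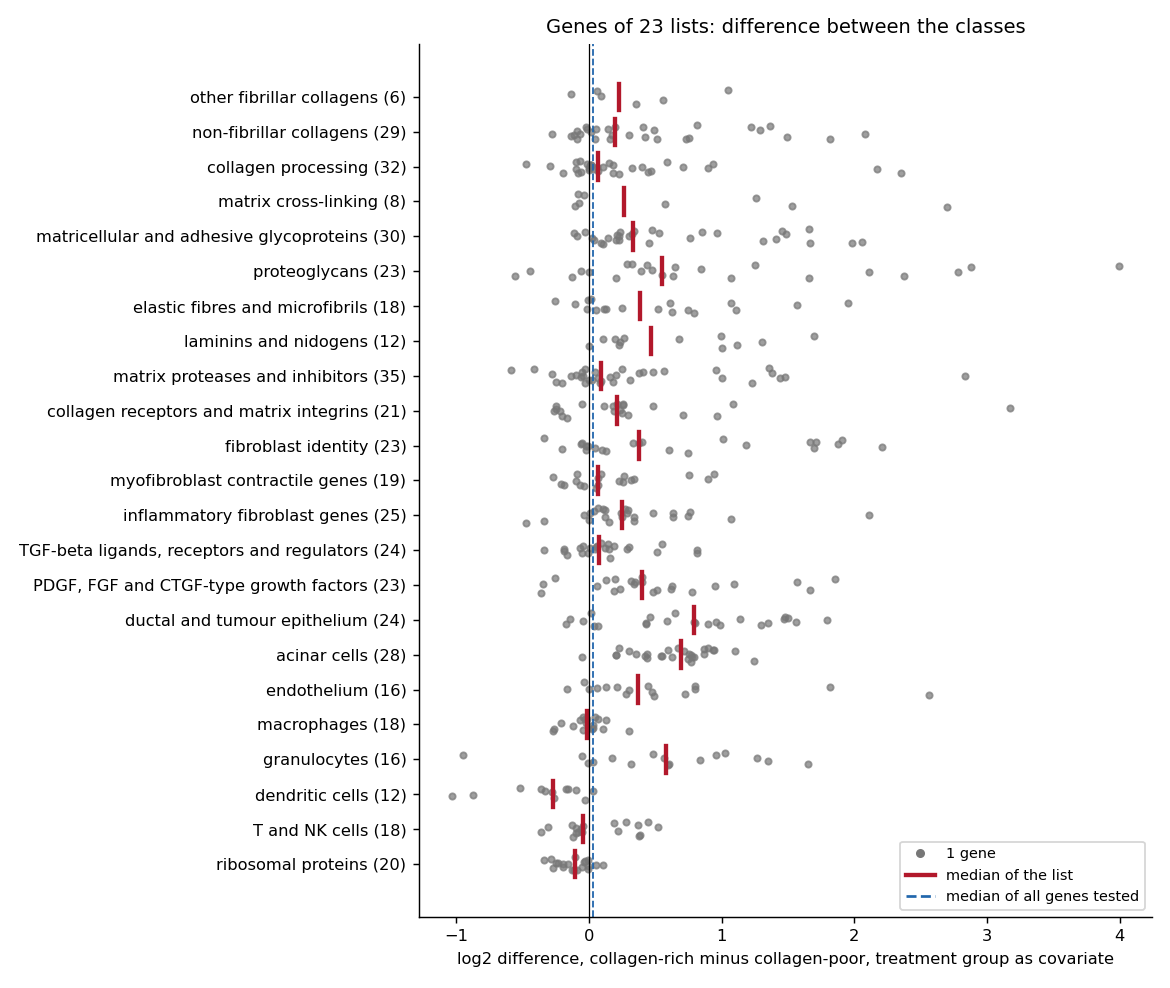
Fitted log2 difference, collagen-rich minus collagen-poor with treatment as covariate, of each tested gene in 23 lists (points, with the number of genes in brackets), the median of each list (red bar) and the median of all genes tested (dashed line, 0.03). Proteoglycans, laminins, epithelium and acinar cells have medians well to the right, the medians of macrophages and contractile genes lie near 0, and dendritic cells lie to the left.

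Markers of other cell types stood beside the collagens as well, and their part in the matrix values was not tested beyond the fits given below. Of 24 ductal and tumour epithelial genes, of which Lcn2 is also in the granulocyte list, 21 were higher (87.5%, against 56.4% of all genes). At an unadjusted p under 0.05, 5 were higher, and the median of the list was 0.79. Without treatment in the fit it was 0.45, beside 0.44 for the proteoglycans, and without 10 days replicate 3 or replicate 5 it was 0.49. Cldn18, a tight junction gene of stomach and tumour epithelium that was well above background on 3 of 6 collagen-poor arrays, differed by 0.99 ± 0.27, Krt18 by 1.35 ± 0.55, Krt8 by 1.47 ± 0.66 and Muc1 by 1.79 ± 0.80. Krt8 ran from 2.59 to 4.08 in collagen-rich and from 0.35 to 3.72 in collagen-poor arrays, its low values, 0.35 and 0.38, being those of 48 h replicate 4 and 10 days replicate 5. The mean of the list lay between -1.48 and 0.13 and between -2.51 and -0.03, so the classes overlapped widely. The 2 collagen-poor arrays with the least collagen, 10 days replicate 5 and 48 h replicate 4, were also lowest in epithelial genes.

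Acinar genes, those of the digestive enzyme cells of the normal pancreas, were higher in 27 of 28 with a median of 0.69, but the median was 0.08 without treatment in the fit and 0.17 without 10 days replicate 3 or replicate 5. Their mean ran from 0.59 to 1.90 in collagen-rich and from 0.01 to 1.97 in collagen-poor arrays. Try5 and Try4, near-identical trypsinogen genes whose probes may not tell them apart, differed by 0.87 ± 0.24 and 0.90 ± 0.27. Endothelial genes had a median of 0.37, with 14 of 16 higher. Ptprb, well above background on 4 of 6 collagen-poor arrays, differed by 2.56 ± 0.90 and Plvap by 0.73 ± 0.32. All 9 islet genes tested were higher, with a median of 0.43, and 10 of 12 erythroid genes, with a median of 0.70; neither list had a member at an unadjusted p under 0.05. Of the 7 genes tested of the mesothelial list 6 were higher, with a median of 1.21. That median was 0.32 without 48 h replicate 3 and 0.40 with normexp background correction. It was 0.56 without treatment in the fit and 0.24 over members well above background on all arrays. Krt19 belongs to both this list and the epithelial list, so these values cannot be read as those of a separate cell type.

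These cell type values stand beside the matrix lists. With the mean of the acinar list as a further term, the medians were 0.47 for proteoglycans, 0.22 for matricellular genes, 0.15 for elastic fibres, 0.16 for laminins and nidogens and 0.06 for the epithelial list. In the fit on the score, Lox had a slope of 2.19 with the acinar mean as a term (adjusted p = 0.00684 by limma) and of 2.27 with the epithelial mean as a term (adjusted p = 0.015), and in either case no other gene passed. With the mean of the fibroblast identity list as a term, the medians of proteoglycans, matricellular genes and the epithelial list were -0.11, -0.32 and -1.06. That mean itself did not overlap between the classes.

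Each slide held 6 of the 12 arrays, but with treatment in the fit a value within a slide rests on 1 array set against others of its treatment. On slide 1 this was 48 h replicate 3 and on slide 2 vehicle replicate 6. The remaining treatments had no array of the other class on the same slide. The median of the proteoglycans was 0.53 on slide 1 and 0.74 on slide 2, and that of the matricellular genes 0.31 and 0.56. The laminins and nidogens had medians of 0.19 and 0.97, the epithelial list 0.31 and 0.89, the acinar list 0.04 and 0.50, and the endothelial list -0.01 and 0.45. The 3 matrix lists named here and the epithelial and acinar lists thus had the same sign on both slides, each sign resting on the 1 array named. The acinar and endothelial medians were near 0 on slide 1.

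**Figure D5:**
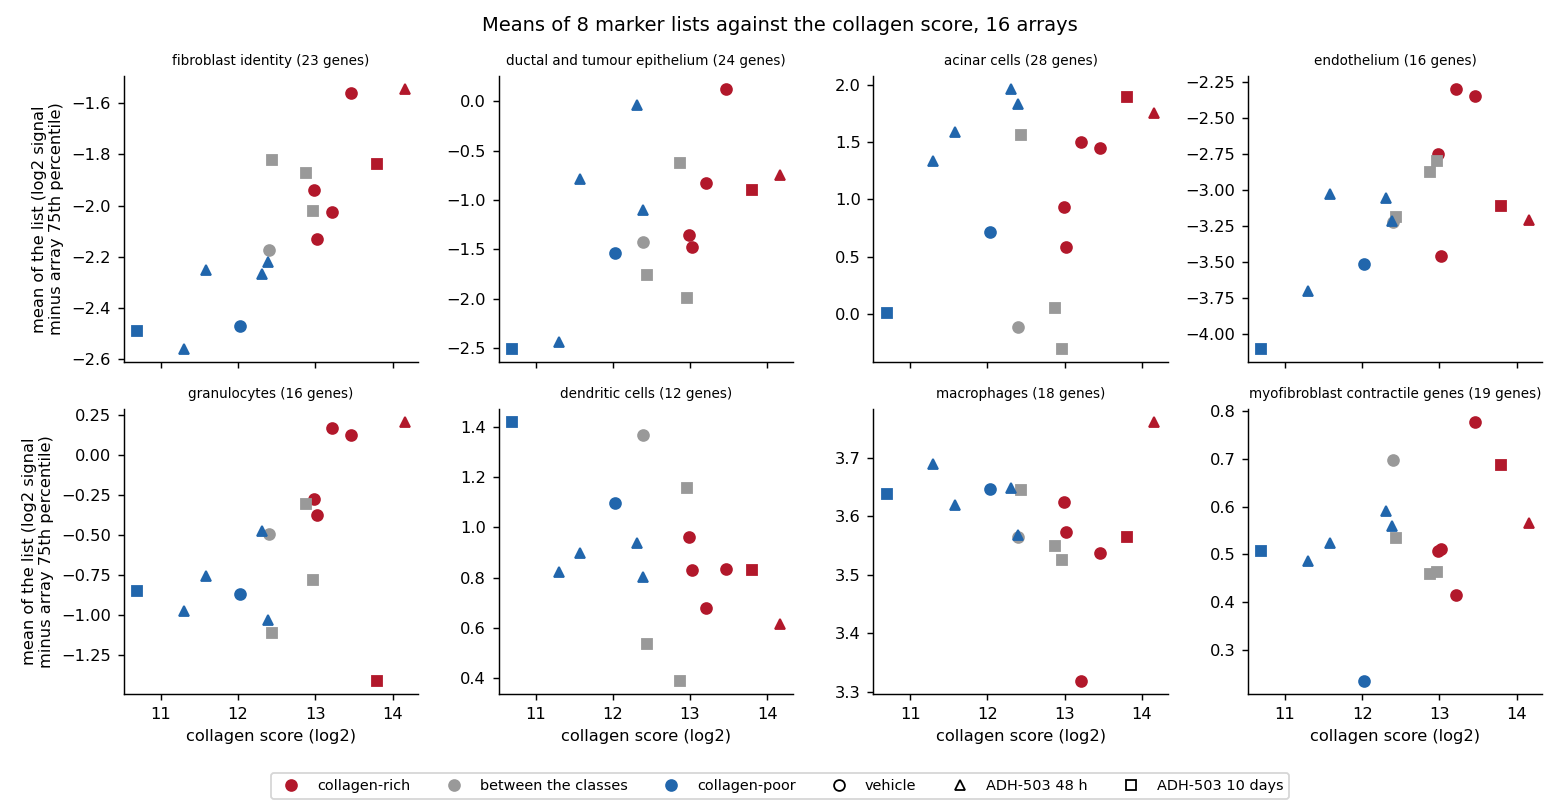
Mean log2 signal (minus the array's 75th percentile) over the tested genes of 8 marker lists against the collagen score of the 16 arrays, with colour for class and shape for treatment. Fibroblast identity separates the classes, from -2.13 upward in collagen-rich and up to -2.22 in collagen-poor arrays; epithelial and acinar means overlap widely, and macrophage means span 3.32 to 3.76.

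Among immune cells, 8 of 18 macrophage genes were higher, 0 had an unadjusted p under 0.05 in either direction, and the median was -0.02. Differences in this list ran from -0.27 to 0.30, and Mrc1 at -0.21 ± 0.14 and Lyz2 at -0.27 ± 0.15 were among the 10 lower. Dendritic cell genes lay the other way from collagen, 11 of 12 being lower with a median of -0.27. Of these Cd209a, the mouse DC-SIGN gene of monocyte-derived dendritic cells, differed by -0.87 ± 0.30, and Batf3, the transcription factor needed for cross-presenting dendritic cells, by -0.36 ± 0.16. Cd209a ran from 1.89 to 2.92 in collagen-rich and from 1.97 to 3.52 in collagen-poor arrays. Cd209c, of the same gene family and among the 12 genes with the smallest p in this direction, did not overlap, at -6.27 to -3.66 against -3.61 to -2.30, and differed by -2.08 ± 0.54 (adjusted p = 0.927 by limma). The median of the dendritic cell list was -0.25 in the deposited table, -0.21 and -0.32 within the slides and -0.10 with the fibroblast mean as a term.

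Granulocyte genes had a median of 0.58, with 13 of 16 higher (81.25%, against 56.4% of all genes). At an unadjusted p under 0.05, 4 were higher, among them Ltf (1.35 ± 0.53) and Fpr1 (1.02 ± 0.40), while Mpo differed by -0.95 ± 0.36. The median of the list was 0.17 without 48 h replicate 3. Lcn2 is in both this list and the epithelial list. The T and NK cell list had a median of -0.05 and the B and plasma cell list of 0.07.

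None of the 12 genes with the smallest p among those higher in collagen-rich arrays passed, counting only genes well above background on 4 or more arrays of each class. Those reported were Shisal1, Mmp3, Fgf1, Slit3, Gprc5d, Tenm1, Bdkrb2, Ccdc80, S100b, Pcdh9 and Zfp385b. They did not come from a single pathway list, and the 1 further probe of Gprc5d and the 1 of Zfp385b went the other way. Ccdc80, a secreted matrix protein, differed by 0.87 ± 0.15 and Slit3, a guidance ligand, by 1.62 ± 0.27. S100b, a marker of Schwann cells, read -2.41 (lowest), -1.56 (median) and -0.87 (highest) in collagen-rich arrays and -3.31, -2.75 and -2.59 in collagen-poor ones, without overlap, and differed by 1.44 ± 0.28. Bdkrb2, a bradykinin receptor, differed by 2.505 ± 0.44 and was well above background on 4 of 6 collagen-poor arrays. In the other direction the 12 were Zfp85, Cd209c, Chrna2, Asb2, Dmtf1, Ago4, Dnaaf2, Cdc6, Jph3, Enpp7, Zfp970 and 2610044O15Rik8, whose differences, apart from that of Cd209c, lay between -0.74 and -0.46.

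Of 20 ribosomal protein genes 18 were lower with a median of -0.11, and of 14 housekeeping genes 9 with a median of -0.07. Of 20 genes of the unfolded protein response 15 were lower with a median of -0.15, Dnajb9 differing by -0.36 ± 0.14. Of 30 proliferation genes 23 were higher (76.7%, against 56.4% of all genes) with a median of 0.17. Mki67 differed by 0.45 ± 0.14 while Cdc6 differed by -0.53 ± 0.15, and the 1 further probe of Cdc6 went the other way. The interferon list had a median of -0.01 and the oxidative phosphorylation list of -0.02.

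Whether what goes with collagen differs between treated and vehicle tumours was tested as a difference in slope on the score. limma found 0 of 30560 genes (0%) with another slope under ADH-503 at an adjusted p under 0.05, the lowest adjusted p being 0.999. At an unadjusted p under 0.05 there were 1050 genes, where 5% of the genes tested are 1528. With the deposited quantile-normalized values 1 gene passed, Gm30797, a predicted gene. With 6 vehicle arrays, whose scores ran only from 12.03 to 13.46, the slope within vehicle rests on a narrow range.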

How the data were processed

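Whole-tumour RNA was amplified as cDNA, labelled with Cy5 and hybridised to 1-colour Agilent mouse arrays, per the labels' protocols. Per the submitters' processing notes, the scanner software was Agilent Feature Extraction, version 11.5.1.1. Per the file headers, the deposited processed signal is a linear intensity from which background was subtracted, and probe positions refer to build mm9; its arrays were not scaled to one another. The authors also deposited a log2 table of the same 16 arrays, quantile-normalized by its values; it chose the arrays and served as an alternative source of values.

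Spots marked as controls or outliers were dropped (62 values of tested genes), and none was saturated. Spots of 1 probe were averaged as log2 values and each array's 75th percentile was subtracted. Of 36972 names, given through a RefSeq table where possible, each was represented by its brightest probe, and 30560 were tested, those well above background on 5 or more of the 16 arrays. The 4 genes of the score were not tested.

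The fit was limma 3.58.1 in R 4.3.3 on 12 arrays, with class and treatment group, robust eBayes, 2-sided p-values and Benjamini-Hochberg adjustment over all genes. The fit and its script were tested on simulated data. An error given after ± is an SE unless SD is written.

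The arrays were chosen on measured values, and the members, the 48 gene lists and the tests were chosen with earlier results of these data known. Named genes were the 12 per direction with the smallest p among those with a current symbol and well above background on 4 or more arrays of each class, up to 5 per list described, and a fixed set that included Acta2, Fap, Fn1, Postn, Lox, Sparc and the TGF-beta ligands; Fam228a, Lgi2 and Gm30797 were named after their values were seen. A gene that the rule names is not reported here. The number of arrays limits precision. Alternatives covered the source of values, background, scaling, filters, slide, covariates, the choice of arrays and each array left out.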

Additional observations from a re-analysis of the deposited data

Results flagged for a closer look

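Among 96 groups of 6 arrays checked over 48 named genes, 7 had a sample far from the others in its class, and chance flags about 1 in 20 groups. Among collagen-poor arrays, vehicle replicate 6 stood apart for S100b at -3.31 (nearest array -2.85), for Zfp970 at 0.55 (nearest -0.01) and for Itgb2 at 4.88 (nearest 5.02). Also among collagen-poor arrays, 10 days replicate 5, which has the least collagen, stood apart for Pcdh9 at -7.17 (nearest -5.42) and for Greb1 at -7.65 (nearest -5.63). Among collagen-rich arrays, 10 days replicate 3 stood apart for Dnaaf2 at -1.91 (nearest -2.19) and vehicle replicate 3 for Tgfb2 at -5.86 (nearest -4.26).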

How the results depend on the processing

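No paired analysis was run. The labels carry no replicate numbers, and those used here only name the arrays in accession order. The ID numbers in the titles differ between samples, apart from the shared one. The count of 0 genes higher in collagen-rich arrays became 1 without a filter on dim probes, 1 with slide as a fixed block, 4 with 8 against 8 arrays and 4 with the score over 16 arrays; leaving out arrays gave 0 to 1. The count of genes lower stayed at 0 in every alternative run. The 4 genes rising with the score became 1 with slide as a block, 1 with the acinar and 1 with the epithelial mean as a term, 2 without a filter, 0 without the 2 arrays farthest from the median score and 1 without both arrays that share an ID number; leaving out arrays gave 0 to 5. The count of 0 genes with another slope under ADH-503 became 1 in the deposited table. The alternatives on the score other than its use over 16 arrays, and the comparison without the 2 arrays next to the boundary, were chosen after seeing the data.

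Directions reversed in genes with small or uneven differences, and in Sparc only with the fibroblast mean as a term. The cause was not tested. Cxcl12 was -0.0161 in the deposited table, -0.0162 under quantile normalization, -0.10 with slide fixed, -0.11 on slide 2, -0.14 with 4 against 4 arrays, -0.00263 on the score and -0.0358 without the 2 arrays at the boundary. Fap was 0.0175 with normexp, 0.0917 with slide random, 0.12 on the score, 0.0772 with 8 against 8 arrays, and 0.00685 and 0.0379 with arrays chosen on scaled signal and on Col1a1. Mmp2 was 0.29 on slide 1, 0.0935 on the score, 0.11 with 8 against 8 arrays and 0.42 with arrays chosen without Col5a1. Itgam was 0.0694 with slide fixed, 0.13 on slide 2, 0.0115 with 4 against 4 arrays and 0.0206 without the 2 arrays at the boundary, and Itgb2 was 0.0364 on slide 2. On slide 1 Itga11 was -0.18 and Tgfb2 -0.0664, and Tgfb2 was -0.23 without treatment as covariate. On slide 2 Postn was -0.35, Tgfb1 0.16 and Tgfb3 -0.00282, and with the acinar mean they were -0.12, 0.0664 and -0.0724. With the fibroblast mean, which itself did not overlap between the classes, Sparc was -0.12, beside 1.41 in the main fit. With the same term Pdgfrb was -0.26, Postn -0.90, Tgfb2 -0.30, Tgfb3 -1.05 and Il6 -0.38. Leaving out 1 array at a time, Cxcl12 ranged from -0.017 to 0.134, Fap from -0.178 to 0.197, Itgam from -0.0898 to 0.0441, Mmp2 from -0.46 to 0.252 and Tgfb1 from -0.172 to 0.0700.

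The classes are small, their boundaries fall between near-equal scores, and with treatment in the fit each treatment rests on 1 array of 1 class. Leaving out 10 days replicate 3 or replicate 5 gives the same fit, since the other then has no partner. Arrays chosen on the scaled signal, without Col5a1 or on Col1a1 alone each changed 1 array of 1 class. Genes that are not well above background in the collagen-poor class have differences that depend on the background correction.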
